A study of Mus musculus with 8 samples.

Results

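The genes described here are the cyclins, kinases and inhibitors that govern the G1 phase of the cell cycle, read in mouse embryonic fibroblasts (MEFs) that carry the E2F3 L430Q mutation (E2F3LQ MEFs) and in WT MEFs. The 10 genes were Ccnd1, Ccnd2, Ccnd3, Ccne1, Ccne2, Cdk2, Cdk4, Cdk6, Cdkn1b and Cdkn2c, chosen by symbol. Of these, 9 had a named probe on the arrays and 8 had a probe detected above background (detection p under 0.05 on at least 2 of the 8 arrays), among 10214 genes and unnamed probes tested in all. The values are normalized log2 signals of Illumina bead arrays, on which short probes fixed to beads read each transcript, so a difference of 1 is a 2-fold difference in signal. The 4 groups, each of 2 arrays, were E2F3LQ MEFs without serum (0% FBS) for 72 h, WT MEFs without serum for 72 h, E2F3LQ MEFs proliferating in 10% FBS, and WT MEFs proliferating in 10% FBS. E2F3LQ clones 2 and 4 and WT clones 1 and 16, all of C57BL/6 background from embryonic day 13.5, were each measured once in either condition. The p-values therefore measure only the spread between these clones.

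E2F3 is a transcription factor that activates genes for S phase entry, and the LQ change lies in the part of the protein that the retinoblastoma (Rb) family binds. According to the methods, the change was introduced by knock-in, the selection cassette was removed by crossing with Mox2Cre mice, and mutant and WT embryos were littermates of heterozygous crosses. D-type cyclins respond to growth factors and activate CDK4 and CDK6, which phosphorylate Rb and release E2F. E-type cyclins, whose genes are E2F targets, then activate CDK2 and drive cells into S phase. The inhibitor p27, encoded by Cdkn1b, blocks cyclin E-CDK2, and p18, encoded by Cdkn2c, belongs to the INK4 family, which blocks CDK4 and CDK6.

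Because E2F acts through promoters, the stretches before the start sites were searched for letters of the E2F binding motif (TTTCCCGC, TTTGGCGC, TTTCGCGC or TTTGCCGC, on either strand) and for the same words without the first letter, which each full word also contains. RefSeq promoters (build GRCm38.p6, 250 bases before to 50 after the start) were given for 7 of the 10 genes, with 9 start sites. The full words were in 2.26% of all 32851 promoters and in 1 of these 9, that of Cdk2. The 7-letter words were in 9.57% of all promoters and in 2 of the 9, those of Cdk2 and Cdkn2c. The 250 bases before the start of these genes are shown with the matches in capitals, together with Ccne1, a well-known E2F target whose window held no match.
Cdk2 promoter, chr10:128705052-128705301, minus strand: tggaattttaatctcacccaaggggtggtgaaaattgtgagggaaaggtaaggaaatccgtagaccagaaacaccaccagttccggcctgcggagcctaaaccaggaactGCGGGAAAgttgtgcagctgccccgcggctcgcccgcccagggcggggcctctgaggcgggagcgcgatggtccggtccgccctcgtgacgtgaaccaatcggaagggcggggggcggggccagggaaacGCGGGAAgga
Ccne1 promoter, chr7:38107491-38107740, minus strand: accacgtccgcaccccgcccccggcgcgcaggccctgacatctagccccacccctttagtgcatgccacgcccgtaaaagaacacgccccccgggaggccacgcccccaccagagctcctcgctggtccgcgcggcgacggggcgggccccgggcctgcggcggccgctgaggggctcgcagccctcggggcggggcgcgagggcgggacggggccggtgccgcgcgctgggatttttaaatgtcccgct
Cdkn2c promoter, chr4:109666757-109667006, minus strand: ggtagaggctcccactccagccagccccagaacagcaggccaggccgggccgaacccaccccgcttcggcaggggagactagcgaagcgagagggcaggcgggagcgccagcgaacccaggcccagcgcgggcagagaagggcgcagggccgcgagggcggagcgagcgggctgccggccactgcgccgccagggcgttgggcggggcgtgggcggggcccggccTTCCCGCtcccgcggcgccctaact
In Cdk2 the full match began 140 bases before the start site, and a 7-letter match began 10 bases before it. Another 7-letter match, GCGGCAA, began 40 bases after the Cdk2 start site, beyond the stretch shown. In Cdkn2c the match began 25 bases before the start site. A match is a description of letters, and nothing was measured at these sites here.

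On the arrays as a whole, 47.2% to 48.3% of probes were detected per array, and 11 of 11 fibroblast markers were detected on all 8 arrays. The proliferating E2F3LQ clone 2 array stood apart, where 685 genes differed over 2-fold from their average on the remaining proliferating arrays, while each of those had 103 to 223 such genes. E2f3 itself was at 6.14 and 6.01 in starved E2F3LQ MEFs against 6.54 and 6.65 in starved WT MEFs, and at 6.74 and 6.60 in proliferating E2F3LQ MEFs against 7.06 and 6.97 in proliferating WT MEFs. A point mutation is not expected to be read by such a probe, so this is no check of the labels.

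The first comparison asked how the G1 genes answered to the withdrawal of serum. Cyclin E2 was the one member called in the main model, which reads the brightest probe of a gene. Ccne2 fell 2.23-fold on average over both genotypes (-1.15 on the log2 scale). Its starved signals were detected on 2 of 4 arrays, and without background correction the fall was -0.36 on the log2 scale. The 3 D-type cyclin genes had higher signals without serum in every clone, by amounts that did not pass the threshold in the main model but did under some other settings, given with each gene. Dimmer probes passed the threshold for Cdk2, with a fall, and for Cdkn2c, with a rise, as given below. In the main model, 1 of the 8 members fell and 0 rose at an adjusted p under 0.05, where 22.4% of all features were called. At an unadjusted p under 0.05, 4 of 8 members differed, with 37.1% of all features past that level. Starved and proliferating arrays did not overlap for 2 of 8 members, against 30.5% of all features. The median log2 fold change was 0.01 over the members and 0.00 over all features.

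**Figure D1:**
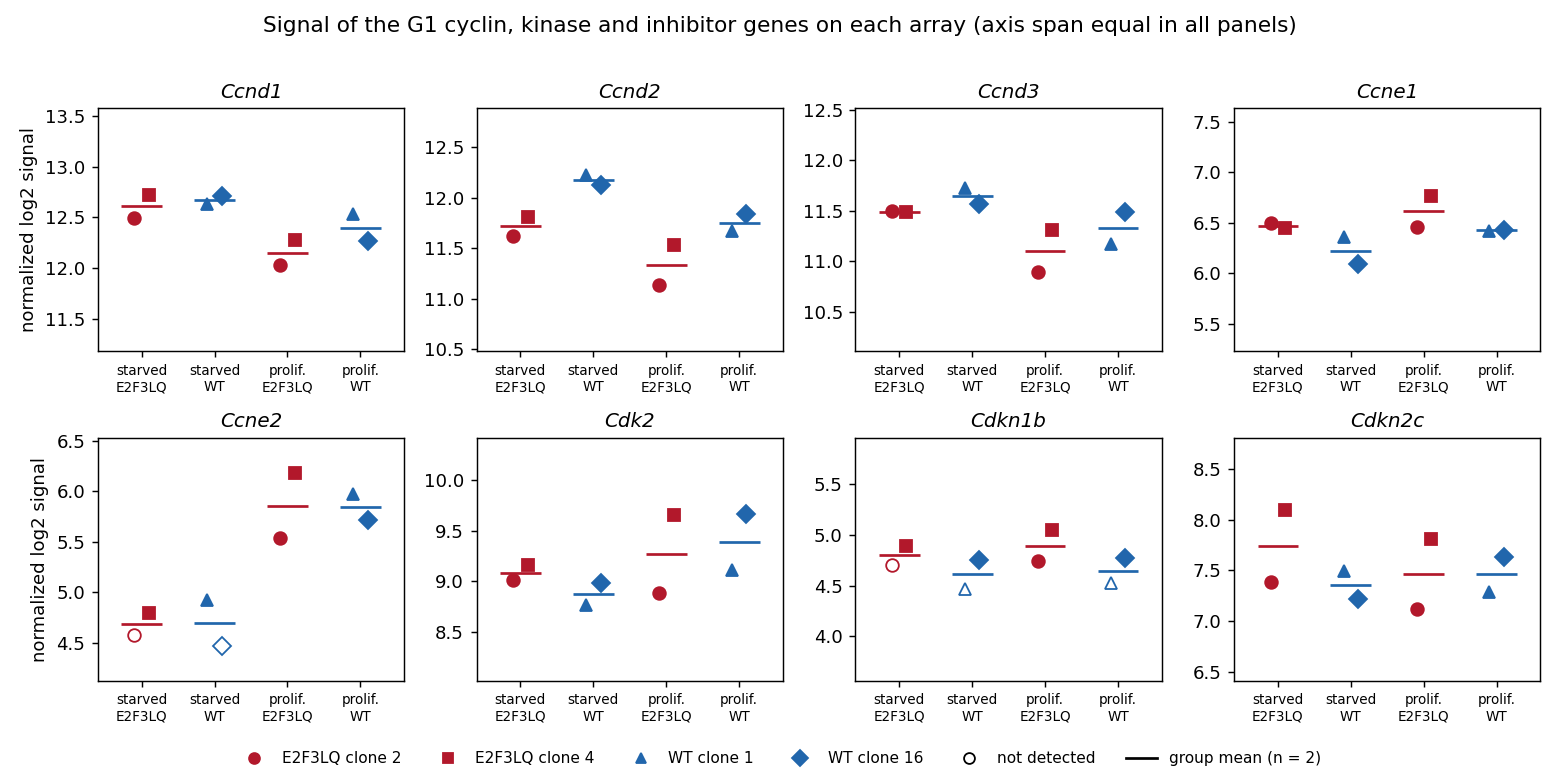
Normalized log2 signal (vertical axis, the same span in each panel) of the 8 measured members in the 4 groups along the horizontal axis, 1 point per array and a bar at each group mean; open points were not detected above background. The 4 Ccne2 signals of starved MEFs, 4.47 to 4.93, lie below the 4 of proliferating MEFs, 5.53 to 6.18.

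Ccnd1, which encodes cyclin D1, gave signals of 12.50 and 12.72 in starved E2F3LQ MEFs and 12.63 and 12.71 in starved WT MEFs, against 12.03 and 12.27 in proliferating E2F3LQ MEFs and 12.53 and 12.26 in proliferating WT MEFs. The starved arrays were higher within each genotype, and across genotypes only starved E2F3LQ clone 2 and proliferating WT clone 1 overlapped. Averaged over genotypes, the log2 difference was 0.37 ± 0.12 (SE, limma adjusted p = 0.0749). It passed without background correction (adjusted p = 0.0425), with an offset of 50 (0.0473) and with an intensity trend (0.0445). At the same threshold it did not pass under the other planned settings with all arrays (limma adjusted p up to 0.320). All 3 Ccnd1 probes had higher signals in starved MEFs, and 1 of them, ILMN_2601471, passed the threshold on its own, with 0.46 ± 0.13 (adjusted p = 0.0423 in a limma fit over 13666 probes).

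Ccnd2, which encodes cyclin D2, gave 11.62 and 11.81 in starved E2F3LQ MEFs and 12.22 and 12.13 in starved WT MEFs, against 11.14 and 11.53 in proliferating E2F3LQ MEFs and 11.67 and 11.84 in proliferating WT MEFs. Here the conditions separated within each genotype but overlapped between genotypes, since the E2F3LQ arrays lay below the WT arrays. The difference over both genotypes was 0.40 ± 0.13 (SE, limma adjusted p = 0.0651). With the clone as a random block, since the same clones were measured in both conditions, it passed (adjusted p = 0.0476). It also passed without background correction (0.0404), with an offset of 50 (0.0432), with cyclic loess (0.0354) and with an intensity trend (0.0414). At the same threshold it did not pass under the other planned settings with all arrays (limma adjusted p up to 0.292).

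Ccnd3, which encodes cyclin D3, gave 11.50 and 11.49 in starved E2F3LQ MEFs and 11.73 and 11.57 in starved WT MEFs, against 10.90 and 11.31 in proliferating E2F3LQ MEFs and 11.17 and 11.49 in proliferating WT MEFs. The highest proliferating and lowest starved arrays nearly met, and the mean difference was 0.35 ± 0.14 (SE, limma adjusted p = 0.110). The second, dimmer Ccnd3 probe, ILMN_1246473, differed by 0.48 ± 0.11 (adjusted p = 0.0247), and the mean of both probes passed as well (adjusted p = 0.0442). At the same threshold Ccnd3 did not pass under the other planned settings with all arrays (limma adjusted p up to 0.421). Over the 6 D-type cyclin probes and 4 clones, 24 of 24 clone differences had the same sign, but probes of 1 gene read the same RNA and are not separate evidence. Without proliferating E2F3LQ clone 4 the averaged differences were 0.43 for Ccnd1, 0.50 for Ccnd2 and 0.46 for Ccnd3. That fit leaves clone 2, the array that stands apart, as the only proliferating E2F3LQ array. Without proliferating E2F3LQ clone 2 the differences were 0.31, 0.30 and 0.25. Over all 12 fits that left out an array or a clone, they ranged from 0.28 to 0.45, 0.30 to 0.50 and 0.24 to 0.47. With each array scaled by its median, which moved the median of all features to -0.13, the differences were 0.25, 0.28 and 0.23.

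Of the E-type cyclin genes, Ccne2 was the one that changed. It gave 4.58 and 4.80 in starved E2F3LQ MEFs and 4.93 and 4.47 in starved WT MEFs, against 5.53 and 6.18 in proliferating E2F3LQ MEFs and 5.97 and 5.71 in proliferating WT MEFs. The conditions did not overlap, and Ccne2 was detected on 1 of 2 arrays in each starved group and on all 4 proliferating arrays. Before normalization its intensities were 105.5 to 118.7 in starved MEFs and 139.1 to 185.9 in proliferating MEFs. The log2 difference was -1.15 ± 0.19 over both genotypes (SE, limma adjusted p = 0.00682), with clone differences of -0.95 and -1.38 in E2F3LQ MEFs and -1.05 and -1.24 in WT MEFs.

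In E2F3LQ MEFs alone the log2 difference of Ccne2 was -1.17 ± 0.26 (SE, limma adjusted p = 0.0537), so 0 of 8 members were called where 4.6% of all features were. In WT MEFs alone Ccne2 fell by 1.14 on the log2 scale (SE 0.26, limma adjusted p = 0.0436), so that 1 of 8 members was called there, where 8.17% of all features were. At an unadjusted p under 0.05, 2 of 8 members differed in E2F3LQ MEFs, with 23.9% of all features, and 1 of 8 in WT MEFs, with 26.3%. The 2 arrays of each condition did not overlap for 4 of 8 members in E2F3LQ MEFs, with 49.7% of all features, and for 6 of 8 in WT MEFs, with 62.4%. The number of all features called moved with single arrays. In E2F3LQ MEFs it was 470, fell without either starved E2F3LQ array and rose without proliferating clone 4. The last fit leaves clone 2, the array that stands apart, as the only proliferating E2F3LQ array. In WT MEFs the number of all features called was 834. It fell without proliferating clone 1 or either starved WT array and rose without either proliferating E2F3LQ array. Each of these fits leaves 1 array in a group, so their counts are not given. With the clone as a block, as the same clones were measured in both conditions, Ccne2 was called in E2F3LQ MEFs as well (adjusted p = 0.0363). With an offset of 50 the averaged difference was -0.62. The call in WT MEFs was lost without any 1 of the 4 WT arrays or either starved E2F3LQ array (adjusted p from 0.0798 to 0.252), and the averaged call was lost when both arrays of WT clone 1 or of WT clone 16 were left out (adjusted p of at least 0.0878).

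For Ccne1 no change was called. Its signals were 6.49 and 6.45 in starved E2F3LQ MEFs and 6.35 and 6.10 in starved WT MEFs, against 6.46 and 6.77 in proliferating E2F3LQ MEFs and 6.42 and 6.43 in proliferating WT MEFs. The WT arrays did not overlap between conditions and the E2F3LQ arrays did, and the averaged difference was -0.17 (95% interval -0.45 to 0.11, limma adjusted p = 0.344).

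**Figure D2:**
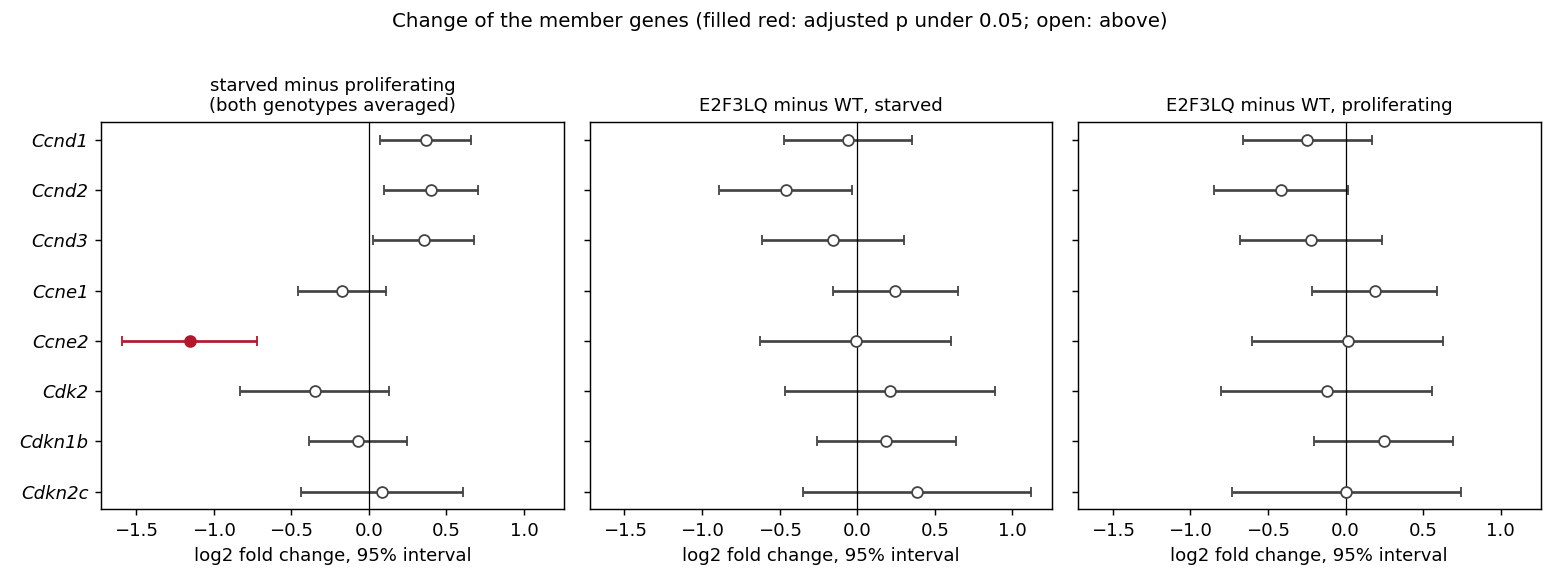
Log2 fold change (horizontal axis) with its 95% interval for each member, for starved minus proliferating MEFs averaged over genotypes (left), E2F3LQ minus WT in starved MEFs (middle) and E2F3LQ minus WT in proliferating MEFs (right). The one filled point is Ccne2 in the serum comparison, at -1.15, and no member passed the threshold between genotypes.

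Cdk2, the catalytic partner of cyclin E, had 4 passing probes, and the answer depended on which was read. The brightest, ILMN_1233064, gave 9.02 and 9.16 in starved E2F3LQ MEFs and 8.77 and 8.98 in starved WT MEFs, against 8.89 and 9.65 in proliferating E2F3LQ MEFs and 9.12 and 9.67 in proliferating WT MEFs. Proliferating E2F3LQ clone 2 and WT clone 1 lay among the starved values, and the averaged difference of -0.35 ± 0.20 did not pass (SE, limma adjusted p = 0.260). Without proliferating E2F3LQ clone 2 it was -0.54 (adjusted p = 0.0444).

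The probe ILMN_2770759, annotated to another RefSeq transcript of Cdk2 than the other 3, gave 5.83 and 6.20 in starved E2F3LQ MEFs and 5.68 and 5.83 in starved WT MEFs, against 6.67 and 7.004 in proliferating E2F3LQ MEFs and 6.69 and 6.91 in proliferating WT MEFs. Read by this probe, Cdk2 was lower in all 4 starved arrays than in any proliferating array, by -0.94 ± 0.14 (SE, limma adjusted p = 0.00554). ILMN_1250942 also passed, with -0.38 ± 0.10 (adjusted p = 0.0340), and ILMN_2717613 did not, with -0.65 ± 0.20 (adjusted p = 0.0524). Both are annotated to the transcript of the brightest probe, and both were also lower in all 4 starved arrays than in any proliferating array. The nearest starved and proliferating values were 5.21 and 5.44 for ILMN_1250942 and 7.27 and 7.32 for ILMN_2717613. The separation was thus not particular to ILMN_2770759. Over the 4 probes, 15 of 16 clone differences were below 0. The mean of the probes gave -0.58 (adjusted p = 0.0287). The probes were compared one by one only after it was seen that they differed.

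**Figure D3:**
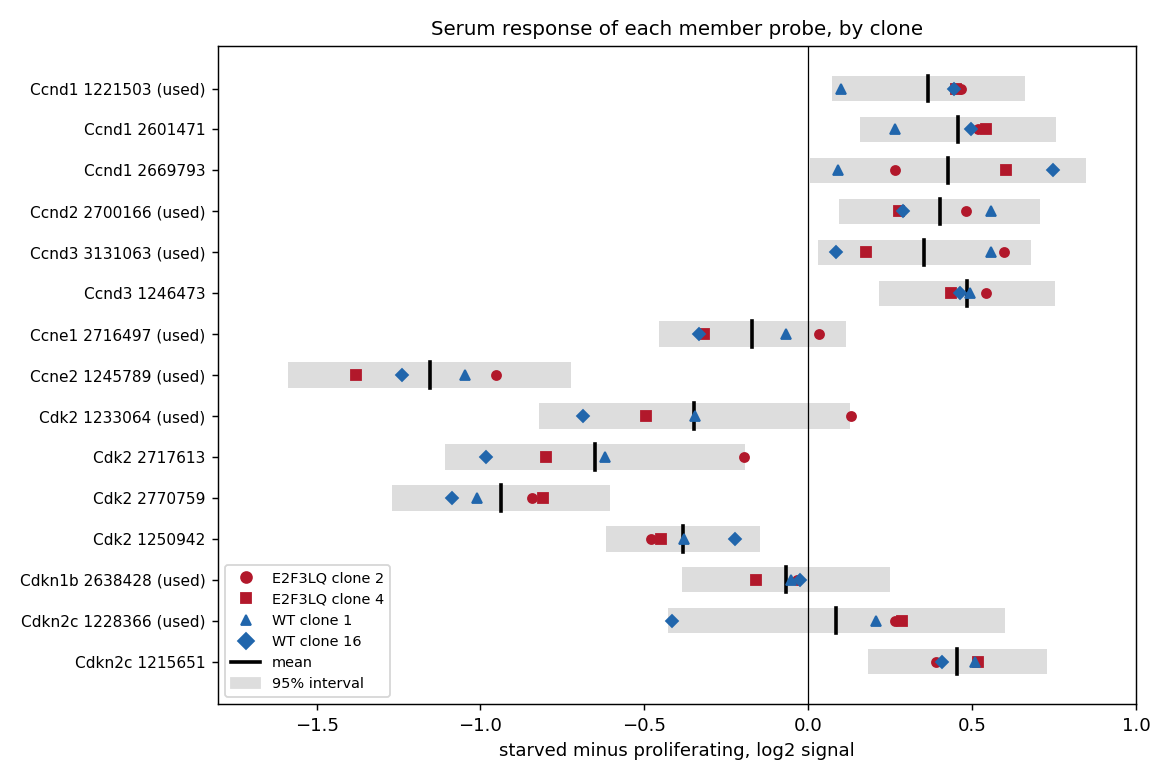
Starved minus proliferating log2 signal (horizontal axis) for each of the 15 passing member probes, with a point per clone, a black line at the mean and a grey bar for the 95% interval. All 24 points of the D-type cyclin probes lie above 0, and 15 of 16 points of the Cdk2 probes and all 4 of Ccne2 lie below it.

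The CDK inhibitors among the members gave no call. Cdkn1b was close to background and detected on 5 of 8 arrays, with 4.71 and 4.89 in starved E2F3LQ MEFs and 4.47 and 4.75 in starved WT MEFs, against 4.74 and 5.05 in proliferating E2F3LQ MEFs and 4.52 and 4.77 in proliferating WT MEFs. All groups overlapped, and the averaged difference was -0.07 (95% interval -0.38 to 0.25). The other 2 Cdkn1b probes were detected on 0 arrays.

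Cdkn2c gave 7.39 and 8.10 in starved E2F3LQ MEFs and 7.49 and 7.22 in starved WT MEFs, against 7.12 and 7.81 in proliferating E2F3LQ MEFs and 7.29 and 7.64 in proliferating WT MEFs. Its clones moved in different directions, by 0.26 and 0.29 in E2F3LQ clones 2 and 4, 0.21 in WT clone 1 and -0.41 in WT clone 16. The mean difference was 0.09 (95% interval -0.43 to 0.61, limma adjusted p = 0.808), and under median scaling it was -0.13. A dimmer Cdkn2c probe, ILMN_1215651, was higher in all 4 clones after starvation, by 0.46 ± 0.12 (SE, adjusted p = 0.0311).

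The kinases of the D-type cyclins could not be followed. Cdk6 had 1 probe, detected on 0 of 8 arrays, with intensities of 103.3 to 125.7 and detection p-values of 0.0664 to 0.711. No probe carried the symbol Cdk4 in the annotation used here, so Cdk4 was not analysed.

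Between genotypes, the comparison addressed whether a form of E2F3 that escapes Rb changes the G1 genes in growing or in starved cells. No member passed the threshold: 0 of 8 in starved MEFs and 0 of 8 in proliferating MEFs, where 0% of all features were called in either. For proliferating MEFs that share was above 0% when E2F3LQ clone 4 was left out, with no member called. Such a fit leaves clone 2, the array that stands apart, as the only proliferating E2F3LQ array, so its count is not given. At an unadjusted p under 0.05 the count was 1 of 8 in starved MEFs, with 2.21% of all features, and 0 of 8 in proliferating MEFs, with 2.83%. The exact permutation test of 2 arrays against 2 cannot give a two-sided p below 0.333.

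Cyclin D2 was the member with the widest gap. Ccnd2 was lower in E2F3LQ than in WT MEFs without overlap in both conditions, by 0.46 ± 0.18 on the log2 scale in starved MEFs (SE, limma adjusted p = 1) and by 0.42 ± 0.18 in proliferating MEFs (limma adjusted p = 0.999), of which the starved difference is the 1 past an unadjusted 0.05. The 2 conditions hold the same clones and are not separate evidence. The proliferating difference was 0.22 in size without proliferating E2F3LQ clone 2 and 0.61 without clone 4, with the same sign.

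Ccne1 was higher in E2F3LQ MEFs without overlap in both conditions, by 0.25 (95% interval -0.16 to 0.65) in starved MEFs and by 0.19 (-0.21 to 0.59) in proliferating MEFs. Here too both conditions hold the same clones. The nearest proliferating arrays almost met, at 6.46 in E2F3LQ clone 2 and 6.43 in WT clone 16. The proliferating difference was 0.34 without proliferating E2F3LQ clone 2 and 0.035 without clone 4. Ccne2 differed by -0.01 (-0.62 to 0.61) in starved MEFs and by 0.01 (-0.60 to 0.63) in proliferating MEFs. In starved MEFs Ccne2 was detected on 1 of 2 arrays of each genotype, so the starved interval compares signals near background. In starved MEFs, 4 of 8 members did not overlap between genotypes, with 33.9% of all features doing so, and in proliferating MEFs 2 of 8 did not, with 21.9%. Besides Ccnd2 and Ccne1, these were Ccnd3, at -0.16, and Cdk2, at 0.21, in starved MEFs.

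The response to serum was not shown to differ between genotypes for any member. The difference of the 2 responses was tested as an interaction, which called 0 of 8 members and 0% of all features, and at an unadjusted p under 0.05 it held 0 of 8 members and 1.53% of all features. For Ccne2 it was -0.02 (95% interval -0.89 to 0.85). That of Cdkn2c was 0.38 (-0.66 to 1.42) by its brighter probe and -0.0043 by the other, ILMN_1215651.

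Cell type markers are given beside these comparisons. Markers of macrophages and blood cells, of which 12 were tested, were lower in E2F3LQ MEFs for 9 of 12 genes in starved MEFs and 11 of 12 in proliferating MEFs. Of all features, 50.6% were higher in E2F3LQ in starved MEFs and 44.7% in proliferating MEFs. Between genotypes 0 of these 12 markers were called. At an unadjusted p under 0.05, 0 of 12 were lower in starved MEFs, with 1.25% of all features, and 6 of 12 in proliferating MEFs, with 1.7%. Their summed linear signal was 1563 to 3514 in starved E2F3LQ MEFs against 4432 to 4471 in starved WT MEFs, and 999.9 to 5449 in proliferating E2F3LQ MEFs against 3288 to 7102 in proliferating WT MEFs. Fibroblast markers were also lower in E2F3LQ, for 8 of 11 genes in either condition. Endothelial markers were lower for 3 of 3 genes in starved and 2 of 3 in proliferating MEFs. Epithelial markers were higher for 1 of 2 genes in starved and 2 of 2 in proliferating MEFs. Between serum conditions, averaged over genotypes, 5 of the 12 macrophage and blood cell markers were called lower in starved MEFs and 0 higher, with a median of -0.41. Of all features, 11.5% were called lower there and 10.9% higher. Markers of cycling cells were lower in starved MEFs for 5 of 5 genes tested, all called, beside the same 11.5% of all features. Their summed signals were 804.0 to 1081 in starved MEFs against 1767 to 3093 in proliferating MEFs. Between genotypes 0 of these 5 were called. In starved MEFs 5 of 5 were higher in E2F3LQ, 4 of them without overlap, where 17% of all features were higher without overlap. Their median was 0.34, with summed signals of 1015 to 1081 in E2F3LQ against 804.0 to 948 in WT. In proliferating MEFs 5 of 5 were lower in E2F3LQ, all with overlap. The part of any of these cells in the values of the G1 genes was not tested. In such bulk samples fewer cells that express a gene and less RNA per cell cannot be told apart.

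Further genes of the cyclin-dependent kinase system gave the setting for these values. Of 39 such genes, 33 had a named probe and 22 were tested. In starved against proliferating MEFs averaged over genotypes, 4 rose and 4 fell, with 10.9% of all features called higher and 11.5% called lower, and the median log2 fold change of the 22 was -0.18.

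The genes that rose were inhibitors and G-type cyclins. Cdkn2a, which encodes the INK4 inhibitor p16 and the p53 activator p19Arf, was at 10.45 and 10.74 in starved E2F3LQ MEFs and 10.87 and 10.54 in starved WT MEFs, against 7.85 and 7.44 in proliferating E2F3LQ MEFs and 7.32 and 6.85 in proliferating WT MEFs. This was a 9.74-fold rise (limma adjusted p = 0.000358), called in E2F3LQ MEFs, where it was the one gene of the 22 to be called, and in WT MEFs. The symbol does not say which of its products the probe reads. Cdkn2b, which encodes the INK4 inhibitor p15, rose by 0.57 on the log2 scale (adjusted p = 0.0246), Ccng1, a p53 target, by 0.61 (0.0109) and Ccng2, which encodes a cyclin of arrested cells, by 0.52 (0.0202). Of the other inhibitors, Cdkn1a (p21) gave 0.27, Cdkn1c (p57) gave 0.82 and Cdkn2d (p19Ink4d) gave -0.17, and none passed (adjusted p from 0.366 to 0.410).

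The genes that fell act mainly later in the cycle. Cdk1, the mitotic kinase, was at 8.38 and 8.22 in starved E2F3LQ MEFs and 8.08 and 7.91 in starved WT MEFs, against 8.80 and 9.50 in proliferating E2F3LQ MEFs and 9.31 and 9.10 in proliferating WT MEFs, a 2.04-fold fall (limma adjusted p = 0.00769). Cdc25b and Cdc25c, phosphatases that activate CDKs, fell by 0.58 (adjusted p = 0.0473) and 0.67 (0.0258). Both were near background: Cdc25b was not detected on 2 of 4 starved arrays and Cdc25c not on starved WT clone 16. The difference of Cdc25c was -0.32 in E2F3LQ MEFs, with overlap, and -1.03 in WT MEFs, without. Mnat1, a subunit of the CDK-activating kinase, fell by 0.67 (0.0109). Within E2F3LQ MEFs 1 of the 22 rose and 0 fell, where 2.46% of all features were called higher and 2.14% lower. Within WT MEFs 4 rose and 2 fell, where 3.87% were called higher and 4.3% lower, a difference that the interaction did not bear out, as it called 0 of 22.

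**Figure D4:**
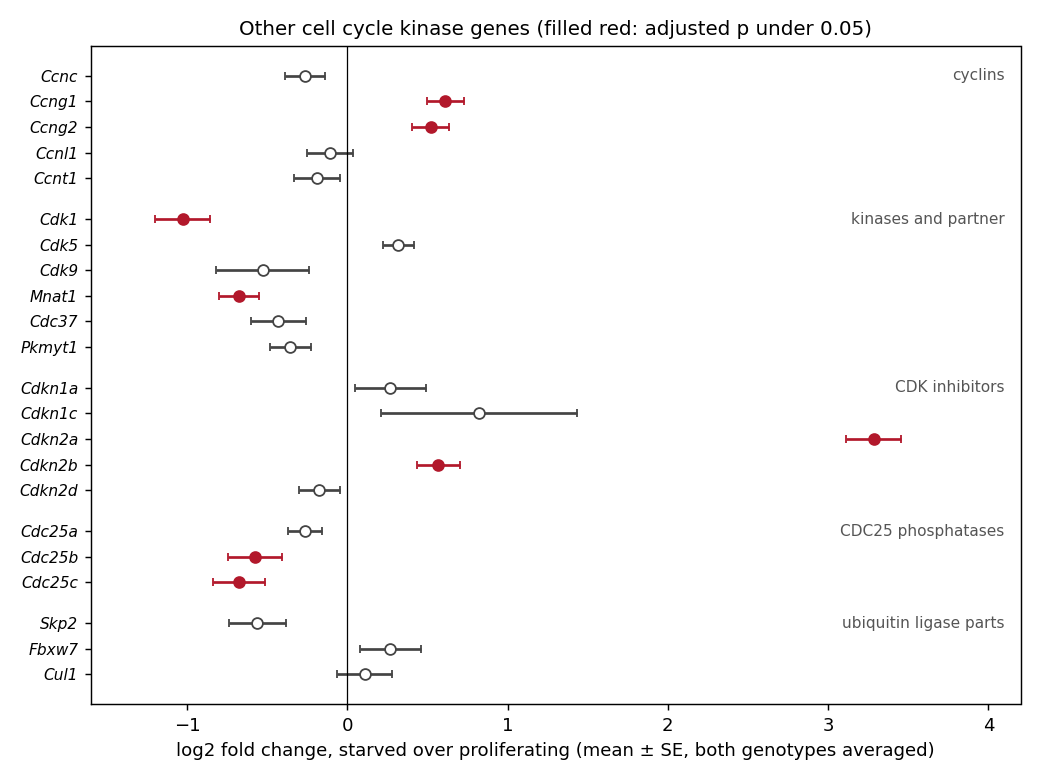
Log2 fold change of starved over proliferating MEFs (horizontal axis, mean ± SE, both genotypes averaged) for the 22 further genes, grouped by role. Cdkn2a stands at 3.28, and the other 7 filled points lie between -1.03 and 0.61.

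Between genotypes 0 of the 22 were called in either condition. In starved MEFs the differences with the smallest p were those of Cdc25c (0.78 ± 0.23, SE), Ccng1 (-0.26 ± 0.16), Cdk5 (0.21 ± 0.14) and Ccng2 (-0.24 ± 0.16), all without overlap and with a limma adjusted p of 1. In proliferating MEFs they were those of Cdkn2a (0.56 ± 0.24), Cdkn2b (0.42 ± 0.19), Cdc25a (-0.31 ± 0.15) and Cdkn2d (0.36 ± 0.18), all without overlap and with a limma adjusted p of 0.999. Over all 22 genes, 5 were higher and 4 lower without overlap in starved MEFs, where 33.9% of all features did not overlap. The counts were 4 and 4 in proliferating MEFs, where 21.9% of all features did not overlap. In the interaction Cdkn2b came first, at -0.64 ± 0.27, followed by Cdc25c (0.72 ± 0.32), Cdkn2a (-0.67 ± 0.34) and Cdk5 (0.31 ± 0.19), with none called.

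The genes whose pattern over the 8 arrays was most like that of the 3 members with the widest range of group means were listed as a description. The correlations follow the 4 groups as well as the single arrays, and among 9429 genes some run high in 8 arrays. For Ccne2 they were Apex1 (Pearson r = 0.989), Psmg1 (0.987) and Atp5c1 (0.986), for Ccnd2 they were Wdr20 (0.976), Wipf2 (0.975) and Osr1 (0.964), and for Ccnd3 they were Rbbp9 (0.992), Lgr5 (0.981) and Zfp763 (0.979).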

How the data were processed

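The deposited intensity table holds 1 signal per probe and array, without visible normalization, and a detection p-value from negative control beads. The authors also deposited a table of background-subtracted, normalized intensity values (medians 8.4 to 8.5, lowest -14.4), used as an alternative after an offset of 16 and log2. Sources used here state no settings for it. Of 25697 probes, 23978 had 1 gene symbol in the platform annotation, 0 several and 1719 none. The members and gene lists were chosen with earlier results of these data known.

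Intensities were normalized with neqc (offset 16) in limma 3.58.1 under R 4.3.3, and 13666 probes with a detection p under 0.05 on at least 2 arrays were kept. The brightest such probe stood for its gene. A model of the 4 group means (lmFit, eBayes, 4 residual and 3.27 prior degrees of freedom) gave 6 comparisons, with Benjamini-Hochberg adjustment over all 10214 features and a threshold of 0.05. The number of arrays limits the precision. Member probes were also fitted singly, over all 13666 probes, chosen after seeing the data. Clones were measured in both conditions, as the labels give, but the main model has no clone term. Its serum comparisons are therefore unpaired, and the clone enters only in alternatives. Deviations of a clone's arrays from their group means correlated at 0.291 in E2F3LQ and 0.0906 in WT. Alternatives were other background corrections, scalings, filters and probe rules, the authors' values, an intensity trend, the clone as a fixed or random block, only the arrays compared, other thresholds, the methods' t-test, and fits without each array or clone. Named genes were the members, and of the wider list those called and the 4 smallest p-values per comparison. The scripts were tested on simulated data. Figures were drawn with matplotlib 3.10.9.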

Additional observations from a re-analysis of the deposited data

Results flagged for a closer look

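For 2 genes of the wider list, Ccng1 and Cdk5, the genotypes were separated in opposite directions in the 2 serum conditions. The share of all features with this pattern was not counted. Genotypes did not overlap for 33.9% of all features in starved MEFs and for 21.9% in proliferating MEFs. Ccng1 was at 12.68 and 12.38 in starved E2F3LQ MEFs against 12.83 and 12.75 in starved WT MEFs. It was at 12.13 and 12.0745 in proliferating E2F3LQ MEFs against 12.0689 and 11.92 in proliferating WT MEFs, where the nearest arrays were almost tied. Its interaction was -0.37 (limma adjusted p = 1.00). Cdk5, which acts mainly in neurons, was at 8.03 and 8.003 in starved E2F3LQ MEFs against 7.76 and 7.84 in starved WT MEFs, and at 7.57 and 7.51 in proliferating E2F3LQ MEFs against 7.66 and 7.63 in proliferating WT MEFs, with an interaction of 0.31 (limma adjusted p = 1.00). No member showed this pattern.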

How the results depend on the processing

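Of 580 values for single members under other settings that kept all arrays, 552 kept their direction and their side of the threshold, 6 were no longer past the threshold, 13 newly passed it and 9 changed sign. The log2 differences that changed sign were small. With each array scaled by its median, which moved the median of all features to 0.12 between genotypes in proliferating MEFs, 0.09 in starved MEFs and -0.13 between serum conditions, the E2F3LQ minus WT difference was 0.071 for Cdk2 in proliferating and 0.051 for Ccnd1 in starved MEFs, the averaged serum difference of Cdkn2c was -0.13 and the interaction of Ccne1 was -0.058. With the mean of a gene's probes, Cdk2 differed by 0.0075 between genotypes in proliferating MEFs and Cdkn2c by 0.18 between starved and proliferating WT MEFs. The genotype difference of Ccne2 in starved MEFs was 0.0010 without background correction and 0.026 with the authors' normalized values, which also gave its interaction as 0.012. For single probes, chosen after seeing the data, ILMN_1250942 of Cdk2 gave genotype differences of -0.0085 in starved and 0.16 in proliferating MEFs and an interaction of -0.16, ILMN_2770759 of Cdk2 gave 0.038 in proliferating MEFs, and ILMN_1215651 of Cdkn2c gave a serum difference of 0.46 in WT MEFs and an interaction of -0.0043.

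The number of members called between starved and proliferating E2F3LQ MEFs was 1 with median scaling, with the clone as a replicate block or random block and at an adjusted p under 0.1. Under these settings 462, 371, 715 and 1098 of all 10214 features were called. In WT MEFs the number of members called was 0 without background correction, with an offset of 50, cyclic loess, the authors' values or no detection filter. It was also 0 with detection on all 8 arrays, the methods' t-test or an adjusted p under 0.01. In the same order, 943, 950, 730, 723, 765 (of 18312), 825 (of 7784), 1 and 80 of all features were called. Averaged over genotypes the number of members called was 3 without background correction, with an offset of 50, the mean of probes or an intensity trend. It was also 3 at an adjusted p under 0.1. Under these settings 2264, 2333, 2229, 2333 and 3263 of all 10214 features were called. The number of members was 2 with cyclic loess or a random block, beside 2284 and 2663 features. It was 0 with detection on all 8 arrays, where Ccne2 was not tested and 2139 of 7784 features were called. At an unadjusted p under 0.05, chosen after seeing the data, the number of members was 2 in E2F3LQ MEFs and 4 averaged over genotypes. Between genotypes in starved MEFs it was 1. Of all features, 23.9%, 37.1% and 2.21% passed in these comparisons. Leaving out an array or a clone leaves 1 array in a group, so the member counts of those fits are not given. The replicate block changed no other call. The labels do not pair E2F3LQ clones with WT clones, and their replicate numbers only follow the order of deposit. With that number as a block 0 members were called between genotypes in either condition, and whether same-numbered clones share a source was not tested. Their deviations correlated at 0.184 in starved and 0.473 in proliferating MEFs.

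Leaving out 1 array or 1 clone at a time kept 497 of 576 values and changed the sign of 63. The kept values include fits without an array that was not part of the comparison, where the difference could not change. Between genotypes the range was -0.17 to 0.054 for Ccnd1 and -0.23 to 0.22 for Ccne2 in starved MEFs, and -0.31 to 0.34 for Ccne2, -0.51 to 0.26 for Cdk2 and -0.34 to 0.35 for Cdkn2c in proliferating MEFs. Between starved and proliferating E2F3LQ MEFs it was -0.32 to 0.033 for Ccne1, -0.56 to 0.20 for Cdk2, -0.25 to 0.057 for Cdkn1b and -0.078 to 0.63 for Cdkn2c. In WT MEFs it was -0.18 to 0.10 for Cdkn1b and -0.41 to 0.21 for Cdkn2c, and averaged over genotypes -0.14 to 0.0088 for Cdkn1b and -0.091 to 0.26 for Cdkn2c. The interaction ranged from -0.24 to 0.15 for Ccnd2, -0.17 to 0.30 for Ccnd3, -0.12 to 0.23 for Ccne1, -0.35 to 0.30 for Ccne2, -0.048 to 0.72 for Cdk2 and -0.21 to 0.10 for Cdkn1b. The causes of these changes were not tested.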

Other observations

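Cdkn1c, which encodes p57, varied widely between arrays of a group. It was at 11.46 and 12.21 in starved E2F3LQ MEFs and 11.91 and 12.19 in starved WT MEFs, against 9.08 and 11.94 in proliferating E2F3LQ MEFs and 11.07 and 12.39 in proliferating WT MEFs, so the low value belongs to proliferating E2F3LQ clone 2, the array that stands apart. Ccne1 was followed over the 8 arrays by Tfdp1, which encodes a partner of E2F proteins (Pearson r = 0.986), by Cdc7, which encodes a replication kinase (0.955), and by Proser3 (0.944). These genes were chosen after their values were seen.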
